A study of Mus musculus with 12 samples.

Results

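The nuclear genes for subunits of the mitochondrial respiratory chain and ATP synthase were followed in AML12 cells, a mouse hepatocyte line. Genes were taken by symbol (Nduf for complex I, Sdh for complex II, Uqcr for complex III, Cox4 to Cox8 for complex IV and Atp5 for complex V), which gave 82 of the 19037 genes in the table. Complex I held 37 of them, complex II 4, complex III 8, complex IV 16 and complex V 17. Of the 82, 79 had enough reads to be tested, and the 3 others (Cox4i2, Cox6a2 and Cox7b2) are given below by their counts. The symbol rule takes in a few genes whose place is debated: Ndufa4 is now regarded as a complex IV subunit, and Cox7a2l acts in the assembly of supercomplexes of complexes III and IV. It leaves out Cyc1 and Cycs, which are described with the electron carriers.

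RNA was sequenced from 4 groups of 3 libraries each: control cells, cells given FK228 (romidepsin, an inhibitor of class I histone deacetylases), cells overexpressing YF mutants of class I histone deacetylases, and cells with both. The titles call the FK228 group HDI, and the labels give the source as liver. The sample codes of the control and FK228 libraries carry the letters GFP and those of the other libraries the letters YF, which the labels do not explain. The sources used here give neither the dose and time of FK228 nor the vector or which deacetylases were mutated. Whether the 3 libraries of each group were grown as separate cultures is not stated either, so the p-values reflect a spread among libraries that may be only technical.

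The respiratory chain sits in the inner mitochondrial membrane. Complex I takes electrons from NADH and complex II takes them from succinate, both hand them to coenzyme Q, complex III passes them on to cytochrome c, and complex IV gives them to oxygen. Complexes I, III and IV pump protons, and complex V, the ATP synthase, lets the protons back through its c ring to make ATP. Complex II is encoded in the nucleus alone, whereas the other complexes combine nuclear subunits with subunits made inside the mitochondrion. Hepatocytes are rich in mitochondria, and many of the nuclear genes are known targets of the factors NRF1, GABPA (an ETS factor) and YY1.

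Promoter windows from RefSeq (build GRCm38.p6, 250 bases before the annotated start to 50 after it) were found for 68 of the 82 genes. They were searched on both strands for the NRF1 motif (GCGCA, then any base, then GCGC), for the ETS motif CCGGAAG and for the YY1 motif AAGATGGCG. Some genes had more than 1 window, and a gene was counted if any of its windows held the motif. The NRF1 motif was present in 17 of the 68 genes (25%), against 11% of the 10651 tested genes with a window and 5.19% of all 27025 genes of the promoter table. The ETS motif was also present in 17 (25%, against 19.3% and 9.93%), and the YY1 motif in 7 (10.3%, against 3.33% and 1.64%). At least 1 of the 3 motifs was present in 35 genes (51.5%, against 29.9% and 15.1%). The windows of 5 genes described below are shown from 170 bases before the start to 30 after it, on the strand of the gene, with the matched motif in capitals. They were chosen after their values were seen: the first 3 belong to the genes that encode 1 and the same ATP synthase c subunit and responded differently, and the other 2 both hold an ETS motif but moved in opposite directions.
Atp5g1: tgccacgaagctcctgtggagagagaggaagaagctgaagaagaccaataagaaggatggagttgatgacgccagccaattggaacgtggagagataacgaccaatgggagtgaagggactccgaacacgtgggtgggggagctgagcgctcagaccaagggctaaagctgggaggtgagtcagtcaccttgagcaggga
Atp5g2: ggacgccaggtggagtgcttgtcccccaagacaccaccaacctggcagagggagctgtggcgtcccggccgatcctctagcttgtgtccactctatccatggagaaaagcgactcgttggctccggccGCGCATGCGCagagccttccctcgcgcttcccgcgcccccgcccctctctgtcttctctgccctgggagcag
Atp5g3: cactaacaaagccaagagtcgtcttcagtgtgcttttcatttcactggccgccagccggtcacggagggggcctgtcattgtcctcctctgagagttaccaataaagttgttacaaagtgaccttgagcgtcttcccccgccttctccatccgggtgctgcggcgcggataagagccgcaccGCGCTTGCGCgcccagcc
Ndufs3: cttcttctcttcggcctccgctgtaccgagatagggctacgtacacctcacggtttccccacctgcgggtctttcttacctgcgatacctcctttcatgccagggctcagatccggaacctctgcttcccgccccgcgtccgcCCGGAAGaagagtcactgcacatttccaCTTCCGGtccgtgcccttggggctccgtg
Uqcrh: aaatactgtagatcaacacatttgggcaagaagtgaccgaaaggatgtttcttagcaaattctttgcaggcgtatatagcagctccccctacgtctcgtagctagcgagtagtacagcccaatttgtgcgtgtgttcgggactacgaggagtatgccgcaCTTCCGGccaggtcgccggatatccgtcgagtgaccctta
The Atp5g1 window (chr11:96075602-96075801, minus strand) held none of the 3 motifs. In Atp5g2 (chr15:102671018-102671217, minus strand) the NRF1 motif began at base -42. In Atp5g3 (chr2:73911297-73911496, minus strand) it lay on the opposite strand at base 13 from the annotated start used. This Atp5g3 window lies wholly inside the gene span given below, so it belongs to an internal start and not to the outermost one. The start used for Atp5g1 also lies inside its gene span, although that window reaches past the end of the span. The lack of a motif in Atp5g1 thus refers to that internal start. Ndufs3 (chr2:90904692-90904891, minus strand) held ETS motifs at bases -27 and 2, and Uqcrh (chr4:116075041-116075240, minus strand) held its ETS motif at base -10. A match of letters describes the sequence and does not show that a factor binds there.

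Libraries held 23664446 to 26122998 estimated counts. Levels are CPM, counts scaled to equal library size with TMM factors, group levels are the mean ± SD of 3 libraries, and changes are log2 fold changes ± SE from edgeR's quasi-likelihood fit, called at a Benjamini-Hochberg adjusted p of 0.05 over the 13346 genes tested. The FK228 libraries differed among themselves more than those of the other groups did. The median subunit mRNA lay 0.29, 0.20 and 0.04 log2 units above the control mean in FK228 libraries 1, 2 and 3, and FK228 library 1 was the highest of its group for 69 of 79 genes. The median range within a group was 0.36 log2 units with FK228 and 0.14, 0.14 and 0.12 in control, YF and the combination. Subunit mRNAs are short, with a median of 875 bases against 3101 for other tested genes, and 45 of 79 were under 1000 bases (57% against 4.98%). The 643 other genes with RNA under 1000 bases moved in the same libraries, by 0.26, 0.13 and -0.04 in FK228 libraries 1 to 3 and by 0.22, 0.10 and 0.16 in the libraries with both. The 6768 other genes over 3000 bases moved by -0.07 to 0.00 in these 6 libraries. The part of RNA length in the results was not tested. Counts without that library and counts with the length trend taken out of each library (an alternative added after seeing the data) are given with the counts over all subunits and, for complexes I, III and V, by complex.

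**Figure D1:**
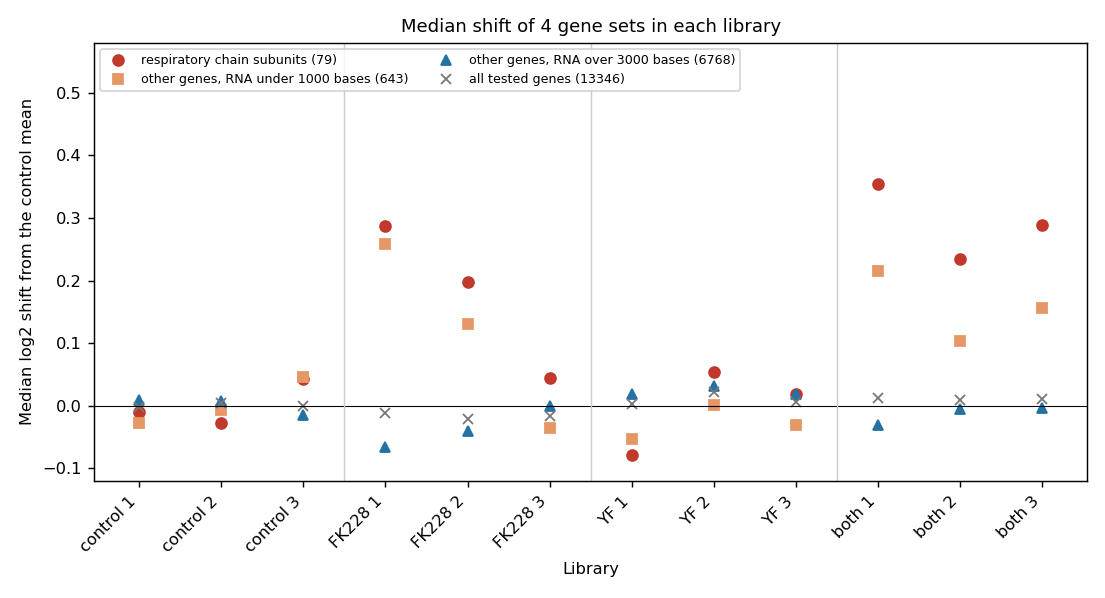
Median shift from the control mean (log2 CPM, vertical axis) in each of the 12 libraries for the 79 subunit genes, 643 other genes with short RNA, 6768 other genes with long RNA and all 13346 tested genes. The subunits and the other short RNAs were highest in FK228 library 1 within the FK228 group, and in the libraries with both the subunits lay above the other short RNAs.

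Hepatocyte identity was partial. Of 10 hepatocyte markers, 5 had a mean of at least 1 CPM in control, among them Trf (519 ± 51.6 CPM), Apob (429 ± 26.2) and Hnf4a (177 ± 7.51), while Alb stood at 0.0387 CPM. The summed hepatocyte markers ran from 1100 to 1190 CPM in control, 592 to 692 in FK228 cells, 1120 to 1180 in YF cells and 536 to 567 in the combination. Not all members followed that sum. The marker calls in this paragraph are to be read beside the shares of all tested genes. Those shares were 33.2% higher and 35.5% lower with FK228, 18% and 14.6% with YF, and 38.8% and 38.6% with both. Of 8 hepatocyte markers tested, 5 were lower with FK228 (62.5%) and 6 with both (75%). The low-count gene Cps1 was higher in each (3.36 ± 0.54 and 3.41 ± 0.54). With YF, 3 were lower (Ttr -1.42 ± 0.27, Apoa1 -1.12 ± 0.30 and Hnf4a -0.55 ± 0.06). Fgb (1.32 ± 0.34) and Trf (0.27 ± 0.07) were higher with YF. The 7 cholangiocyte and progenitor markers in the table summed to 5950 to 6060 CPM in control and 4830 to 5650 with both, with 6060 to 6520 for FK228 and 6410 to 6660 for YF, most of it Spp1. Members did not follow that sum: of 6 tested, 4 were lower with FK228 (Krt19 -1.81 ± 0.09, Cd24a -1.03 ± 0.07, Sox9 -0.65 ± 0.12 and Krt7 -0.27 ± 0.09) and Spp1 was higher (0.36 ± 0.07), and 5 were lower with both. Macrophage and leukocyte markers summed to 136 to 182 CPM in control, 46.5 to 51.3 in FK228 cells, 108 to 130 in YF cells and 60.5 to 70.5 in the combination. In control that sum was mostly Cd14 (154 ± 23.0 CPM), which fell to 21.2 ± 1.90 CPM with FK228. Of 5 tested members, 3 were higher with FK228: Cd68 (2.53 ± 0.391 to 22.8 ± 3.43 CPM), Lyz2 (0.323 ± 0.0436 to 1.97 ± 0.215) and Csf1r (0.361 ± 0.0578 to 1.09 ± 0.527). With FK228, Cd68 was thus as large a part of the sum as Cd14. With both, Cd14 changed by -3.89 ± 0.14 and Cd68 by 4.30 ± 0.13. Adgre1 and Clec4f were at 0 in control. Stellate and fibroblast markers summed to 7.71 to 10.5 CPM in control and 31.6 to 33.1, 12.8 to 18.2 and 32.4 to 40.3 in the other groups in that order. None of 6 endothelial and 9 muscle markers reached a mean of 1 CPM in any group, and their sums were at most 1.58 and 1.25 CPM. The part of these shifts in the subunit results was not tested, and in bulk RNA fewer cells of a type and less RNA per cell cannot be told apart.

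With FK228, 39 of 79 subunit mRNAs were called higher (49.4%, against 33.2% of all tested genes) and 7 lower (8.86%, against 35.5%). The median log2 fold change was 0.17, and that of all tested genes was -0.02. With FK228 and YF together 47 were higher (59.5%, against 38.8%) and 9 lower (11.4%, against 38.6%), with a median of 0.26 against 0.01. With YF alone 5 were higher (6.33%, against 18%) and 3 lower (3.8%, against 14.6%), and the median was 0.01. Without the low-count gene Cox6b2, which passed the filter only through the YF and combination libraries, 4 were higher with YF and 46 with both. Of the other 78 genes, 0 called with FK228, 0 with YF and 5 with both moved by 2-fold or more. The count of lower calls with FK228 rested on the library: it was 17 without FK228 replicate 1, 4 without FK228 replicate 2, and 19 with the length trend removed, whereas the count of higher calls was 37, 41 and 42 under the same settings. With both treatments the length trend removed left 46 higher and 14 lower.

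**Figure D2:**
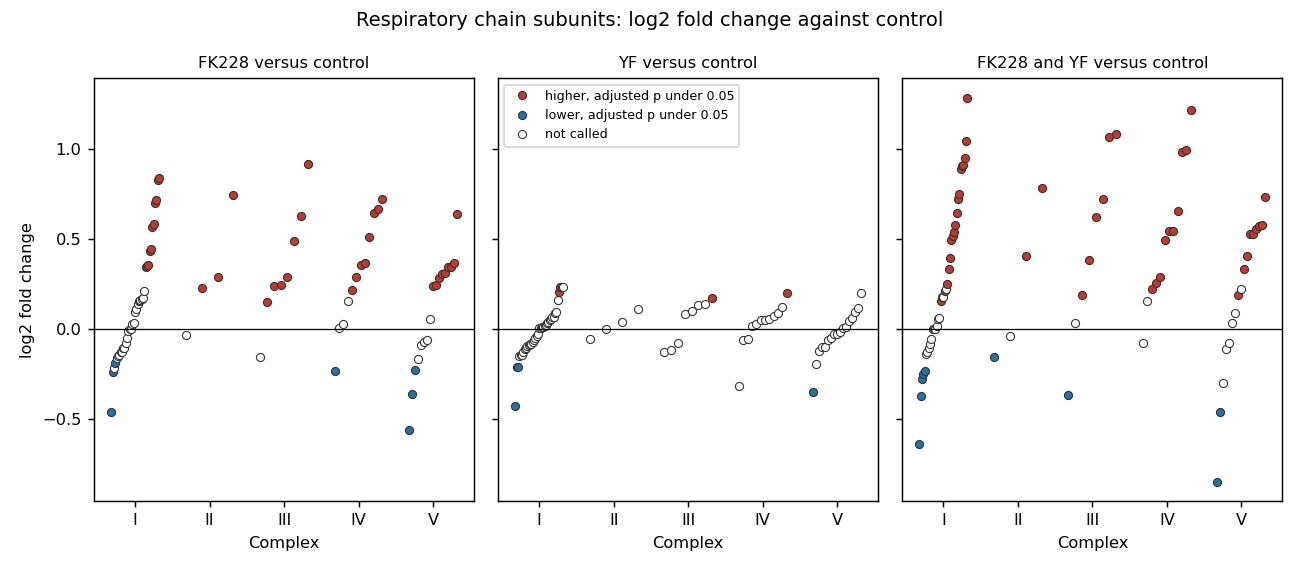
Log2 fold change against control (vertical axis) of 78 tested subunit genes, sorted within complexes I to V, for FK228, YF and both; filled points passed an adjusted p of 0.05 (red higher, blue lower). The low-count gene Cox6b2 is left out; with FK228 and with both most called genes lay above 0 in each complex, and with YF few were called.

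Summed over the 82 genes, the subunit mRNAs stood at 22593 to 23805.5 CPM in the control libraries, 24129.6 to 29560.5 with FK228, 22049.8 to 23712 with YF and 28602 to 30274 with both. Every library with FK228, alone or combined, lay above every control library, though FK228 library 3 did so narrowly, and the YF libraries overlapped the controls. As a share of all counts this was 2.30% ± 0.04 (SD, n = 3) in control, 2.58% ± 0.20 in FK228 cells, 2.37% ± 0.06 in YF cells and 2.94% ± 0.08 in the combination. On the deposited TPM scale, which is per RNA length, the sums were 55266 to 56905 in control, 56586.5 to 62578 in FK228 cells, 58002 to 60975 in YF cells and 69854 to 72112 in the combination. On that scale the FK228 libraries overlapped the controls, and the YF libraries lay above them. The sums of complex II, whose 4 mRNAs are all longer than 1000 bases, were the least spread relative to their means: 624 ± 1.11 CPM in control, 794 ± 18.2 in FK228 cells, 631 ± 5.51 in YF cells and 766 ± 11.8 in the combination.

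**Figure D3:**
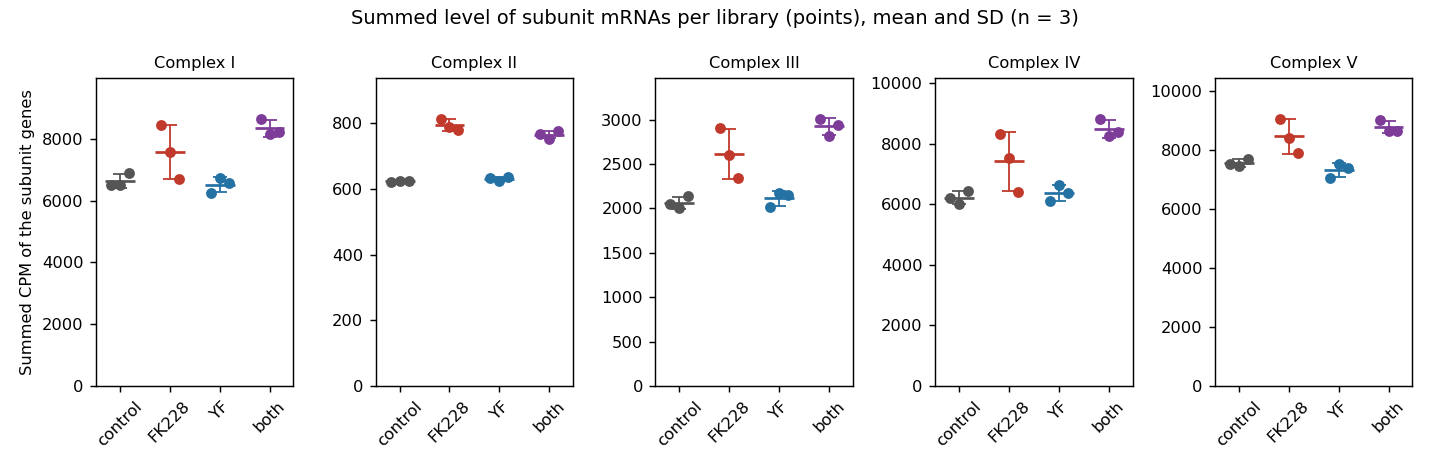
Summed CPM of the subunit genes of each complex (vertical axis, from 0) in each library (points), with the mean (bar) and SD (whiskers) of 3 libraries per group. In every complex the 3 libraries with both treatments lay above the 3 control libraries, and in complexes I and IV FK228 library 3 lay within the range of the controls.

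Subunit mRNAs were present at very unequal levels. On the TPM scale the highest in control cells were Cox8a (4273 ± 174), Atp5md, a small subunit of the ATP synthase (3399.6 ± 103), and Cox6b1 (3149.9 ± 214). The lowest of those tested, Cox6b2 aside, were Ndufa11 (46.3 ± 4.49) and Ndufs1, the largest subunit of complex I (52.7 ± 5.43). Complex II mRNAs stood between 82.2 ± 4.37 TPM (Sdha) and 198 ± 5.56 TPM (Sdhc), and complex III between 153 ± 8.04 (Uqcrfs1) and 1490.0 ± 104 (Uqcr11).

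Complex I, the NADH dehydrogenase, was mixed. FK228 raised 12 of its 37 mRNAs and lowered 3, YF raised 2 and lowered 2, and both together raised 19 and lowered 5. Higher and lower calls were thus 32.4% and 8.11% with FK228, 5.41% and 5.41% with YF, and 51.4% and 13.5% with both, against 33.2% and 35.5%, 18% and 14.6%, and 38.8% and 38.6% of all tested genes, so that the share raised by FK228 was close to the background. Lower calls with FK228 were 9 without FK228 replicate 1 and 12 with the length trend removed, which also gave 5 higher with YF. The median log2 fold changes in the 3 comparisons were 0.09, 0.01 and 0.18. Of the 7 catalytic core subunits, which carry the flavin and the iron-sulfur clusters, both treatments together raised 1 (Ndufv1) and lowered 1 (Ndufs3). Of the 30 accessory subunits, which surround that core, FK228 raised 10 (33.3%, again close to the 33.2% of all genes) and lowered 2, and both together raised 18 (60%, against 38.8%) and lowered 4.

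Ndufv1 encodes the subunit that binds NADH and the flavin (chr19:4007499-4012755). Its libraries read 153, 148 and 160.2 CPM in control cells, 241, 212 and 231 in FK228 cells, 180.3, 176 and 175 in YF cells, and 390.1, 367 and 367 in the combination. The 4 groups did not overlap, and the libraries with both treatments were highest. The log2 fold change was 0.57 ± 0.06 with FK228 (adjusted p = 1.93e-08, edgeR), 0.20 ± 0.06 with YF (adjusted p = 0.00925) and 1.29 ± 0.06 with both (adjusted p = 1.85e-14).

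Ndufs3, another core subunit (chr2:90894627-90904721), went the other way. It read 104, 112 and 115 CPM in control cells, 85.2, 81.5 and 74.0 in FK228 cells, 96.7, 98.1 and 103 in YF cells, and 74.8, 65.9 and 71.4 in the combination. Every FK228 and combination library lay below every control and YF library. It fell by 0.46 ± 0.06 on the log2 scale with FK228 (adjusted p = 2.17e-06) and by 0.64 ± 0.06 with both (adjusted p = 1.01e-08). With YF its value was -0.15 ± 0.06 (adjusted p = 0.0782), and -0.19 without control replicate 1 (adjusted p = 0.0284).

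Among the accessory subunits, Ndufv3 rose from 197 ± 17.7 CPM in control to 352 ± 37.3 under FK228 and 332 ± 15.1 under both, and Ndufa7 from 155 ± 6.96 CPM in control to 274 ± 24.8 under FK228 and 289.9 ± 10.1 under both. Their log2 fold changes with FK228 were 0.84 ± 0.07 and 0.83 ± 0.06. Ndufb10, of the membrane arm, read 99.0, 98.8 and 111 CPM in control cells, 187, 166 and 148 in FK228 cells, 106, 109 and 109 in YF cells, and 228, 204 and 206 in the combination. It rose by 0.70 ± 0.07 with FK228 and by 1.05 ± 0.07 with both (adjusted p = 3.35e-08 and 3.02e-11), and its YF libraries overlapped the controls. Ndufa4, the symbol now placed in complex IV, changed by 0.44 ± 0.09 with FK228 and 0.65 ± 0.09 with both.

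A few accessory mRNAs fell. Ndufa6 read 199, 216 and 219 CPM in control cells, 231, 183 and 168 in FK228 cells, 143, 156 and 173 in YF cells, and 166, 158 and 166 in the combination. All YF and combination libraries lay below the controls, while the FK228 libraries fell on both sides. Its log2 fold change was -0.42 ± 0.09 with YF (adjusted p = 0.00258) and -0.37 ± 0.09 with both (adjusted p = 0.00195). With FK228 alone it was -0.12 ± 0.09 (adjusted p = 0.249), and -0.25 without FK228 replicate 1 (adjusted p = 0.00438). Ndufb5 fell with FK228 and with both (-0.24 ± 0.07 and -0.25 ± 0.07). Ndufb8 did too (-0.19 ± 0.07 and -0.27 ± 0.07), but its call with FK228 ended without control replicate 3, FK228 replicate 2 or FK228 replicate 3 (-0.14, -0.18 and -0.13).

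Complex II, succinate dehydrogenase, also works in the TCA cycle. FK228 raised 3 of its 4 mRNAs (33.2% of all tested genes were higher), YF called none, and both together raised 2 and lowered 1 (38.8% and 38.6% of all genes). Its membrane anchors Sdhc and Sdhd gave different results. Sdhc read 166, 173 and 173 CPM in control cells, 294, 291 and 272 in FK228 cells, 184, 165 and 177 in YF cells, and 288, 288 and 307 in the combination. Every FK228 and combination library lay above every other library, with log2 fold changes of 0.75 ± 0.06 and 0.79 ± 0.06 (adjusted p = 2.14e-10 and 4.09e-11). Sdhd averaged 145 ± 6.65 CPM in control cells, 142 ± 6.01 in FK228 cells, 145 ± 7.38 in YF cells and 130.1 ± 6.99 in the combination. Its change with both was -0.16 ± 0.06 (adjusted p = 0.0209). Leaving out control replicate 1 or combination replicate 3 ended that call (-0.12 in each case).

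The iron-sulfur subunit gene Sdhb rose by 0.29 ± 0.06 with FK228 and by 0.41 ± 0.06 with both. The flavin subunit gene Sdha (chr13:74322255-74350240) read 196, 189.8 and 186 CPM in control cells, 217, 219 and 234 in FK228 cells, 186, 182 and 184 in YF cells, and 186, 182 and 189 in the combination. The FK228 libraries stood above all others, with a log2 fold change of 0.23 ± 0.05 (adjusted p = 0.000506). With both treatments it was -0.04 ± 0.05 (adjusted p = 0.498).

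In complex III, cytochrome bc1, FK228 raised 7 of 8 mRNAs and lowered none, YF raised 1, and both together raised 6 and lowered 1. Higher and lower shares were 87.5% and 0% with FK228, 12.5% and 0% with YF, and 75% and 12.5% with both, against 33.2% and 35.5%, 18% and 14.6%, and 38.8% and 38.6% of all tested genes. With the length trend removed YF gave 4 higher, and FK228 gave 6 higher and 1 lower. Without FK228 replicate 1, FK228 gave 5 higher and 1 lower. Uqcrh, the hinge subunit that contacts cytochrome c1 (chr4:116066965-116075070), read 170.5, 168 and 162 CPM in control cells, 341, 314 and 291 in FK228 cells, 179, 187 and 199 in YF cells, and 375, 326 and 351 in the combination. It rose by 0.92 ± 0.07 with FK228 and 1.07 ± 0.07 with both (adjusted p = 9.31e-11 and 3.42e-12). The YF libraries also lay above the controls (0.17 ± 0.07, adjusted p = 0.046). That call ended when any 1 of 7 libraries was left out (control 2 or 3, YF 2 or 3, FK228 2, or combination 2 or 3), with values of 0.14 to 0.18.

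The small subunit gene Uqcr11 rose from 322 ± 25.3 CPM in control to 498 ± 76.5 under FK228 and 683 ± 37.6 under both (0.63 ± 0.09 and 1.09 ± 0.09). The Rieske iron-sulfur protein gene Uqcrfs1 rose from 149.8 ± 3.80 CPM in control to 210.0 ± 16.6 under FK228 and 247 ± 3.66 under both (0.49 ± 0.06 and 0.72 ± 0.06). Of the core proteins, Uqcrc1 rose by 0.24 ± 0.06 with FK228 and Uqcrc2 by 0.15 ± 0.05, the latter not called without control replicate 3 (0.13). Uqcrb read 314, 291 and 300.01 CPM in control cells, 309, 272 and 234 in FK228 cells, 248, 296 and 284 in YF cells, and 232, 237 and 235 in the combination. The combination lay wholly below the controls (-0.36 ± 0.08, adjusted p = 0.000436), and the other groups overlapped them. With FK228 its change was -0.15 ± 0.08 (adjusted p = 0.101), and -0.24 without FK228 replicate 1 (adjusted p = 0.00836).

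Complex IV, cytochrome c oxidase, gave 8 higher and 1 lower of 13 with FK228, 2 higher with YF, and 11 higher and 0 lower with both. The shares were 61.5% and 7.69% with FK228, 15.4% and 0% with YF, and 84.6% and 0% with both, where all tested genes gave 33.2% and 35.5%, 18% and 14.6%, and 38.8% and 38.6%. The low-count gene Cox6b2, which passed the filter only through the YF and combination libraries, is among the higher calls with YF and with both. Apart from it, YF called only Cox7a2l in this complex. Cox7a2l, the supercomplex factor (chr17:83501917-83514333), read 223, 234 and 228 CPM in control cells, 391, 374 and 364 in FK228 cells, 255, 268 and 263 in YF cells, and 547, 515 and 534 in the combination. Its 4 groups did not overlap. It rose by 0.72 ± 0.05 with FK228, by 0.20 ± 0.05 with YF and by 1.22 ± 0.05 with both (adjusted p = 2.05e-10, 0.00731 and 1.84e-14).

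Cox6a1 rose from 591 ± 51.1 CPM in control to 938 ± 163 under FK228 and 1179 ± 75.5 under both (0.67 ± 0.10 and 1.00 ± 0.10). Cox4i1, the ubiquitous isoform of subunit 4, rose from 521 ± 15.6 CPM in control to 668 ± 69.6 under FK228 and 762 ± 26.0 under both (0.36 ± 0.07 and 0.55 ± 0.07). The complex IV mRNA called lower with FK228 was Cox5b, at -0.23 ± 0.09 (adjusted p = 0.0288). Its FK228 libraries read 426, 349 and 306 CPM against 400.3, 429 and 441 in control and overlapped them. The call ended without control replicate 2 or 3 or FK228 replicate 2 or 3, with values of -0.23 to -0.13. Cox7b rose with FK228 (0.22 ± 0.08), which was not called without control replicate 2 or 3 or FK228 replicate 1 (0.14 to 0.20). Cox8a, the highest by TPM, showed 0.03 ± 0.08 with FK228 and 0.16 ± 0.08 with both (adjusted p = 0.74 and 0.0782). The value with both became a call without control replicate 3 or without FK228 replicate 1 or 3 (0.15 to 0.21).

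Several complex IV subunits have isoforms known from muscle, lung or testis. Cox7a1, the heart and muscle isoform, stood at 99.1 ± 20.8 TPM in control, against 646 ± 19.3 for the common isoform Cox7a2. Cox7a1 libraries read 12.5, 18.9 and 14.9 CPM in control cells, 27.4, 24.7 and 20.3 in FK228 cells, 13.0, 11.8 and 12.4 in YF cells, and 31.9, 29.4 and 30.2 in the combination. Every FK228 and combination library lay above every control and YF library. Cox7a1 rose by 0.65 ± 0.12 with FK228 and by 0.98 ± 0.12 with both, and Cox7a2 by 0.37 ± 0.10 and 0.65 ± 0.10.

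The testis isoform Cox6b2 was near 0 in every library. It had 1, 3 and 2 counts in the control libraries, 3, 7 and 7 with FK228, 13, 15 and 21 with YF, and 17, 11 and 32 with both. Relative to control the depth-scaled ratio of its summed counts was 8.13 with YF (95% exact interval 3.48 to 23.2, counting error only) and 10.7 with both (4.63 to 30.2). With FK228 the ratio was 2.99 (1.13 to 9.26). Cox6b2 passed the filter on low counts only through the YF and combination libraries, where it is high, so its calls in those comparisons support nothing. The ubiquitous isoform Cox6b1 rose by 0.29 ± 0.08 with FK228 and 0.50 ± 0.08 with both.

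The 3 untested isoforms had few reads. The lung isoform Cox4i2 had 7, 3, 14 and 4 counts summed over the control, FK228, YF and combination libraries, and the muscle isoform Cox6a2 had 1, 1, 9 and 19. Cox7b2 had 0, 2, 3 and 13 counts. With 3 counts over the group taken as the floor for control, the depth-scaled ratio for the combination was 4.63. That ratio leaves out counting error in the 13, and 8 of them came from combination library 2.

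Complex V gave 9 higher and 3 lower of 17 with FK228, 1 lower with YF, and 9 higher and 2 lower with both. That is 52.9% and 17.6% with FK228, 0% and 5.88% with YF, and 52.9% and 11.8% with both, beside 33.2% and 35.5%, 18% and 14.6%, and 38.8% and 38.6% of all tested genes. Lower calls with FK228 were 6 without FK228 replicate 1 and 5 with the length trend removed. With both they were 4 with that trend removed, which gave 2 higher and 2 lower with YF. In the catalytic head, Atp5b (beta subunit) rose from 1802 ± 26.5 CPM in control to 2135 ± 25.4 under FK228 and 2058 ± 33.5 under both (0.24 ± 0.06 and 0.19 ± 0.06). Atp5a1 (alpha subunit) stood at 788 ± 14.2 CPM in control, with values of 0.06 ± 0.06 and 0.04 ± 0.06 (adjusted p = 0.402 and 0.561). In the central stalk, Atp5c1 (gamma) rose by 0.24 ± 0.06 and 0.33 ± 0.06, and Atp5d (delta) rose from 613 ± 56.4 CPM in control to 954 ± 102 under FK228 and 914 ± 10.9 under both (0.64 ± 0.08 and 0.58 ± 0.08). Atp5e (epsilon) showed -0.07 ± 0.14 and -0.30 ± 0.14 (adjusted p = 0.647 and 0.0612). The value with both became a call without FK228 replicate 1 or 3 or YF replicate 3 (-0.30 in each case).

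In the peripheral stalk, Atp5pb, Atp5h and Atp5j rose with FK228 and with both. Atp5h, for instance, rose from 343 ± 9.87 CPM in control to 436 ± 51.8 under FK228 and 572 ± 33.1 under both. Atp5o, which joins that stalk to the head, fell with FK228 (-0.23 ± 0.08, adjusted p = 0.0122), a call lost without FK228 replicate 2 (-0.13). Atp5j2, a membrane subunit, fell with FK228 and with both (-0.36 ± 0.10 and -0.46 ± 0.10).

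The 3 genes that encode the same mature c subunit, and whose promoter windows are shown above, gave 3 patterns. Atp5g1 (chr11:96072793-96075694) read 377, 354 and 374 CPM in control cells, 367, 325 and 294 in FK228 cells, 346, 383 and 355 in YF cells, and 419, 411 and 346 in the combination. All groups overlapped the controls and no comparison with control passed the test. With FK228 its value of -0.17 ± 0.08 (adjusted p = 0.0695) became a call without FK228 replicate 1 (-0.23, adjusted p = 0.0118) and without combination replicate 3 (-0.17, adjusted p = 0.0459).

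Atp5g2 (chr15:102662868-102671047) read 445, 507 and 539 CPM in control cells, 387, 331 and 294 in FK228 cells, 370.0, 399 and 402 in YF cells, and 281, 277 and 272 in the combination. All 9 treated libraries lay below the controls, with changes of -0.56 ± 0.08, -0.35 ± 0.08 and -0.85 ± 0.08 for FK228, YF and both (adjusted p = 6.83e-06, 0.00296 and 1.56e-08). Atp5g3 (chr2:73908447-73912464) read 350.3, 331 and 349.7 CPM in control cells, 473, 426 and 377 in FK228 cells, 356, 333 and 353 in YF cells, and 457, 445 and 463 in the combination. It rose by 0.31 ± 0.07 with FK228 and 0.41 ± 0.07 with both (adjusted p = 0.000443 and 1.46e-05), and its YF libraries overlapped the controls. On the TPM scale Atp5g2 was the highest of the 3 in control (1238 ± 97.7, against 746 ± 23.6 for Atp5g3 and 691 ± 23.8 for Atp5g1). With both it stood at 669 ± 10.9, within the spread of Atp5g1 (715 ± 71.7) and below Atp5g3 (961 ± 17.9). Related genes and pseudogenes can share reads with these genes, so their separate levels are less certain.

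**Figure D4:**
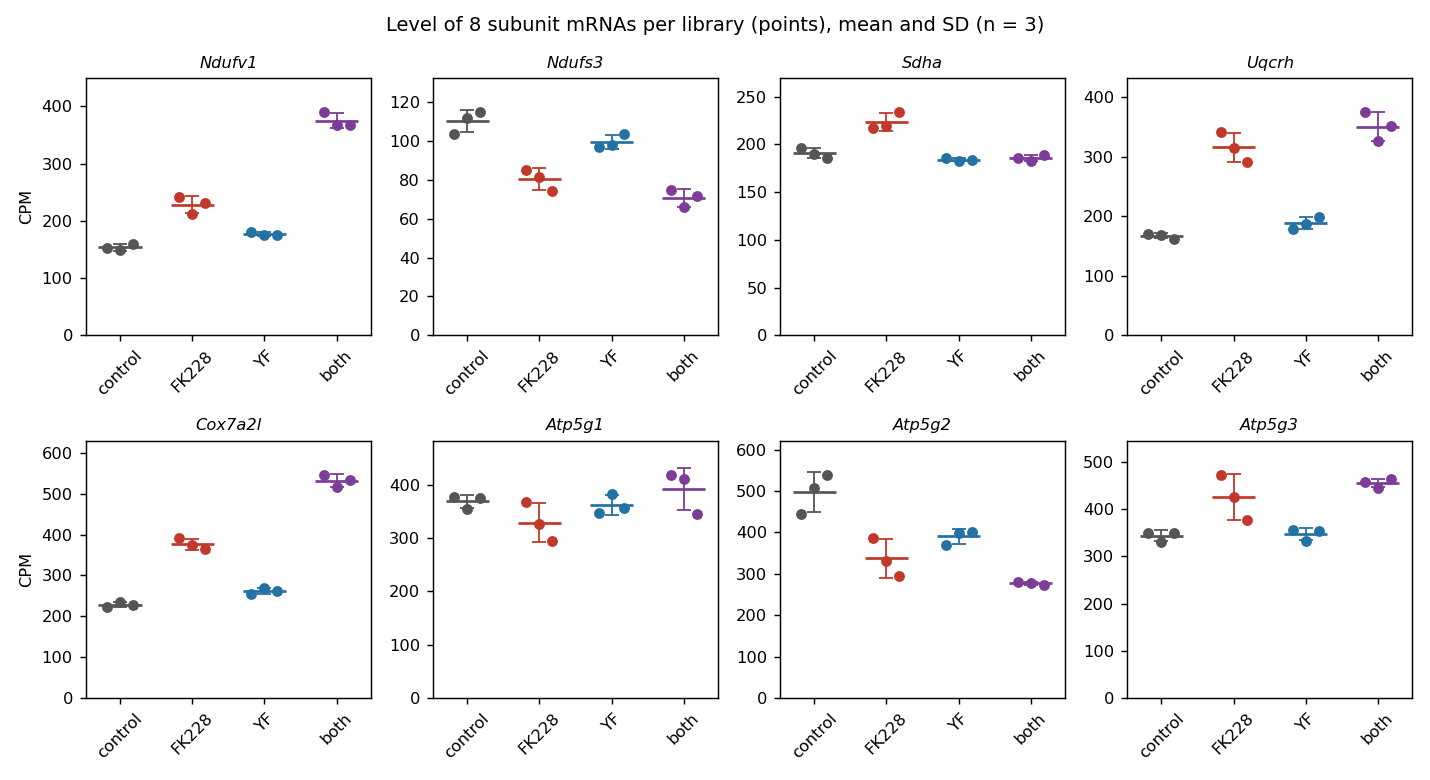
CPM (vertical axis, from 0) of 8 subunit mRNAs in each library (points), with the mean (bar) and SD (whiskers) of 3 libraries per group. Ndufv1, Uqcrh and Cox7a2l had their highest means with both treatments, Ndufs3 and Atp5g2 their lowest, Sdha was higher with FK228 alone, and Atp5g3 rose where Atp5g2 fell.

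YF alone called 8 subunit genes: Ndufv1, Ndufb6, Uqcrh, Cox7a2l and Cox6b2 higher, and Ndufa6, Ndufs7 and Atp5g2 lower. Ndufb6, at 55.1 ± 1.73 CPM in control and 64.8 ± 0.930 with YF (0.23 ± 0.08), lost its call without control replicate 2 or 3 or YF replicate 2 or 3 (0.21 to 0.24). Ndufs7, a core subunit, was at 127 ± 8.08 and 109.7 ± 3.08 CPM (-0.21 ± 0.07), and lost its call without control replicate 2 or 3 or YF replicate 1 or 3 (-0.16 to -0.21). The number of higher calls was 3 without control replicate 2 or 3 or YF replicate 2 or 3, and 15 with the length trend removed. Under that last setting 18.9% of all tested genes were higher with YF. The number of lower calls was 8 without control replicate 1, 5 without FK228 replicate 1 and 6 without FK228 replicate 3. Why an FK228 library moves this count was not tested.

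In the combination against YF, 47 subunit mRNAs were higher (59.5%, against 34.7% of all tested genes) and 7 lower (8.86%, against 35.9%), with a median of 0.28. With the length trend removed 45 were higher and 13 lower. The lower count was 2 without YF replicate 2, and 3 and 4 without combination replicates 2 and 3. Adding YF to FK228 raised 27 (34.2%, against 26.6%) and lowered 6 (7.59%, against 26.3%), with a median of 0.12. That median was 0.0354 without FK228 replicate 3 and 0.165 without FK228 replicate 1. The 27 include the low-count gene Cox6b2, whose call supports nothing because it passed the filter only through the YF and combination libraries. With the length trend removed 33 were higher and 9 lower. The counts moved with the FK228 libraries: 40 were higher and 3 lower without FK228 replicate 1, and 17 were higher without FK228 replicate 3 or without combination replicate 1. Set directly against YF, FK228 gave 38 higher (48.1%, against 27.8%) and 5 lower (6.33%, against 33.3%), with a median of 0.17 against -0.04 for all genes. Cox6b2 is also among the 5 lower here. With the length trend removed 16 were lower and the median was 0.0961. Without FK228 replicate 1 the median was 0.113. Here 10 were lower without FK228 replicate 1, 8 without YF replicate 1, and 3 without FK228 replicate 2 or 3, YF replicate 2 or 3 or combination replicate 2. With library totals in place of TMM factors that median was 0.07, 14 were lower, and the split over all genes was 21% higher and 41.6% lower.

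The interaction, the FK228 effect with YF minus that without, was called higher for 11 subunit genes (13.9%, against 11.1% of all tested genes) and lower for 1 (1.27%, against 15.3%), with a median of 0.09 against -0.04. Of the 11, 8 belonged to complex I, which holds 37 of the 79 tested subunit genes (21.6% of the 37, against 11.1% of all tested genes). The others were Cox7a1, Cox7a2l and Atp5h. The FK228 effect on Ndufv1 was 0.51 ± 0.08 larger in YF cells (adjusted p = 8.8e-05), that on Cox7a2l 0.30 ± 0.08 (adjusted p = 0.00633) and that on Cox7a1 0.65 ± 0.17 (adjusted p = 0.0102). Ndufa10, an accessory subunit, read 127, 137 and 142 CPM in control cells, 153, 143 and 138 in FK228 cells, 138, 137 and 136 in YF cells, and 202, 197 and 192 in the combination. Its FK228 and YF libraries overlapped the controls, those with both lay above them all, and the interaction was 0.43 ± 0.08 (adjusted p = 0.000396).

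The single lower call was Sdha (-0.21 ± 0.07, adjusted p = 0.0336). It was lost when any 1 of 7 libraries was left out (control 2 or 3, YF 1 or 3, FK228 3, or combination 1 or 2), with values of -0.18 to -0.22. The count of higher calls was 23 without FK228 replicate 1, when the median was 0.18, against 0.0259 without FK228 replicate 3 and 0.0516 with the length trend removed. It was 7 without control replicate 3, combination replicate 1, or YF replicate 1 or 3. Of the 12 calls, 6 (Ndufv1, Ndufs7, Ndufa10, Ndufa12, Cox7a1 and Cox7a2l) held in all 12 fits that left out a library.

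**Figure D5:**
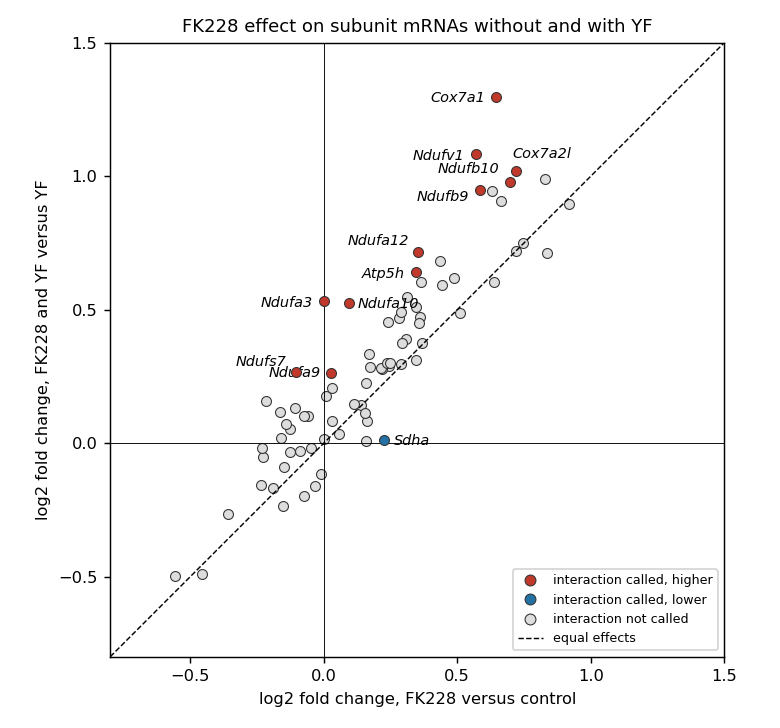
Log2 fold change of FK228 and YF versus YF (vertical axis) against that of FK228 versus control (horizontal axis) for 78 tested subunit genes, Cox6b2 left out; the dashed line marks equal effects and the 2 axes share no library. The 11 genes with a higher interaction call (red) lie above the line and Sdha (blue) lies below it.

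Around the subunits, other genes of the pathway were read from 6 lists: assembly factors of complex I, assembly factors of the other complexes, electron and nucleotide carriers, coenzyme Q synthesis, the TCA cycle and regulators of biogenesis. In that order their median log2 fold changes with FK228 were -0.03, 0.13, 0.24, 0.18, 0.06 and -0.05, against -0.02 for all tested genes, and with both they were 0.12, 0.08, 0.33, 0.20, 0.32 and -0.09, against 0.01. The counts that follow stand against a background of 33.2% and 35.5%, 18% and 14.6%, and 38.8% and 38.6% of all tested genes higher and lower with FK228, YF and both. Of 17 complex I assembly factors tested, FK228 raised 1 and lowered 3, YF raised 1 and lowered 2, and both together raised 7 and lowered 5 (5.88% and 17.6% with FK228, 5.88% and 11.8% with YF, and 41.2% and 29.4% with both). Timmdc1, which helps to build the membrane arm, rose by 0.65 ± 0.07 with FK228 and 0.80 ± 0.07 with both, and Tmem186 changed by -0.63 ± 0.10 and -0.96 ± 0.11. Of 36 assembly factors for complexes II to V, FK228 raised 17 and lowered 9, YF raised 3 and lowered 3, and both together raised 16 and lowered 10 (47.2% and 25% with FK228, 8.33% and 8.33% with YF, and 44.4% and 27.8% with both). Lyrm7, which holds the Rieske protein before its insertion into complex III, went from 1.63 ± 0.109 CPM in control cells to 5.05 ± 0.315 in FK228 cells, 2.57 ± 0.285 in YF cells and 5.87 ± 0.312 in the combination (1.63 ± 0.16, 0.66 ± 0.17 and 1.85 ± 0.16). Fmc1, an ATP synthase assembly factor, fell from 35.6 ± 1.07 CPM in control to 20.8 ± 4.32 under FK228 and 12.7 ± 1.02 under both (-0.77 ± 0.11 and -1.48 ± 0.11).

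Of 11 genes for cytochrome c, cytochrome c1 and carriers, FK228 raised 8 and lowered 2, YF raised 2 and lowered 2, and both together raised 8 and lowered 2 (72.7% and 18.2% with FK228, 18.2% and 18.2% with YF, and 72.7% and 18.2% with both). Cytochrome c itself (Cycs) averaged 400.4 ± 50.2 CPM in control cells, 466 ± 54.4 in FK228 cells, 513 ± 54.3 in YF cells and 661 ± 45.2 in the combination. It rose by 0.36 ± 0.10 with YF, which was not called without control replicate 2 or YF replicate 2 (0.27 and 0.28), and by 0.72 ± 0.10 with both (adjusted p = 4.49e-06). Cytochrome c1 (Cyc1), a subunit of complex III, rose from 172 ± 5.04 CPM in control to 223 ± 16.1 under FK228 and 228 ± 11.4 under both. The ATP/ADP carriers moved apart: Slc25a4, the heart and muscle form, rose from 396 ± 15.3 CPM in control to 589.9 ± 30.1 under FK228 and 659.6 ± 34.7 under both, while Slc25a5 fell from 884 ± 45.4 CPM in control to 599.7 ± 11.5 under FK228 and 443 ± 17.8 under both. Their log2 changes with both were 0.73 ± 0.06 and -0.996 ± 0.07.

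Of 13 coenzyme Q synthesis genes, FK228 raised 6 and lowered 3, YF raised 3 and lowered 1, and both together raised 7 and lowered 2 (46.2% and 23.1% with FK228, 23.1% and 7.69% with YF, and 53.8% and 15.4% with both). The methyltransferase gene Coq5 rose in all 3 comparisons with control (0.62 ± 0.06, 0.25 ± 0.06 and 1.19 ± 0.06), and Coq9 rose with FK228 and with both (0.84 ± 0.07 and 0.83 ± 0.07). Of 17 TCA cycle genes, FK228 raised 7 and lowered 3, YF raised 5 and lowered 1, and both together raised 11 and lowered 3 (41.2% and 17.6% with FK228, 29.4% and 5.88% with YF, and 64.7% and 17.6% with both). Pcx, the pyruvate carboxylase that refills the cycle, went from 12.8 ± 0.890 CPM in control cells to 28.5 ± 2.31 in FK228 cells, 31.9 ± 2.85 in YF cells and 90.7 ± 3.69 in the combination, and was called higher in each. The malate dehydrogenase gene Mdh2 rose from 513 ± 13.6 CPM in control to 864 ± 42.5 under FK228 and 1077 ± 10.1 under both.

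Of 21 regulators of mitochondrial biogenesis, FK228 raised 6 and lowered 8, YF raised 1 and lowered 2, and both together raised 7 and lowered 9 (28.6% and 38.1% with FK228, 4.76% and 9.52% with YF, and 33.3% and 42.9% with both). Nrf1, which encodes the factor of the motif searched above, fell from 31.6 ± 1.10 CPM in control to 22.5 ± 1.94 under FK228 and 16.6 ± 1.24 under both (-0.49 ± 0.08 and -0.93 ± 0.08). Gabpb2, a partner of GABPA, fell by 0.91 ± 0.09 on the log2 scale with FK228. Perm1, a muscle coactivator at a low level here, rose from 0.800 ± 0.0577 CPM in control to 2.32 ± 0.110 under FK228 and 2.64 ± 0.267 under both. Among subunit genes with a promoter window, at least 1 of the 3 motifs was present in 13 of 32 raised by FK228 (40.6%), 4 of 7 lowered (57.1%) and 18 of 28 not called (64.3%).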

How the data were processed

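Total RNA of 12 libraries of AML12 cells was prepared with TRIzol and sequenced from both ends (BGISEQ), per the labels' protocols. Per the submitters' processing notes the build was GRCm38.p6 and the tools included RSEM 1.2.12, Bowtie2 2.2.5, DESeq2 1.4.5 and HISAT2 2.0.4, without roles or order, and nothing says whether strand was used. The deposited table holds estimated counts, of which 16.6% were not whole, and TPM values made by the authors. Per-sample columns used numbered 24, and 24 others were not used. Estimated counts were rounded. Genes passing edgeR's filterByExpr (13346 of 19037) were scaled with TMM factors and fitted with edgeR 4.0.16 (robust quasi-likelihood, all 4 groups in 1 model, R 4.3.3), with Benjamini-Hochberg adjustment over all of them at 0.05. CPM are per library of 23664446 to 26122998 counts, and TPM served only to compare genes and for summed TPM. RNA lengths and promoters came from the reference tables, with 18980 genes matched to RefSeq by gene ID. An RNA length was found for 18214 genes and was that of the longest annotated protein-coding transcript. Other markers and genes of the pathway were read from the same fit.

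The text names, per complex and comparison, the 2 called genes highest and the 2 lowest in log2 fold change, all Sdh genes, isoform families, untested genes, and up to 2 called genes of each pathway list. Genes outside that rule were chosen after their values were seen. The members and lists were chosen with earlier results of these data known. Alternatives were DESeq2 1.42.0, limma-voom (limma 3.58.1), other scaling and filters, fewer groups, a replicate block and each library left out. An RNA length correction was added after seeing the data. The fit was tested on simulated data. No 2 libraries were alike within sampling noise: the mean chi-square per gene was 3.65 to 22.6, where 1 means no difference.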

Additional observations from a re-analysis of the deposited data

Results flagged for a closer look

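By edgeR's test of the interaction, the FK228 effect differed between YF and control cells for 12 of the 79 subunit genes. Of the 79, 11 were higher (13.9%, against 11.1% of all tested genes) and 1 lower (1.27%, against 15.3%). The interaction was called for 21 of 115 tested genes of the pathway lists (13 higher and 8 lower, against the same 11.1% and 15.3%). The shares of higher calls, among the subunit genes and in these lists, were thus close to that of all tested genes. Of the 21, 12 are given here. Values are interaction log2 fold changes ± SE, positive where the FK228 effect was higher in YF cells. In complex I the higher effects were those on Ndufv1 (0.51 ± 0.08, adjusted p = 8.8e-05), Ndufa10 (0.43 ± 0.08, adjusted p = 0.000396), Ndufs7 (0.37 ± 0.10, adjusted p = 0.00944) and Ndufa12 (0.36 ± 0.11, adjusted p = 0.0149). The others in that complex were Ndufa9 (0.23 ± 0.07, adjusted p = 0.0166), Ndufb9 (0.36 ± 0.12, adjusted p = 0.0262), Ndufa3 (0.53 ± 0.17, adjusted p = 0.0343) and Ndufb10 (0.28 ± 0.10, adjusted p = 0.0474). In complexes IV and V they were Cox7a2l (0.30 ± 0.08, adjusted p = 0.00633), Cox7a1 (0.65 ± 0.17, adjusted p = 0.0102) and Atp5h (0.30 ± 0.11, adjusted p = 0.0445), and in complex II the effect on Sdha (-0.21 ± 0.07, adjusted p = 0.0336) was lower.

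Of the genes that assemble the complexes, the effect was higher for Ndufaf2 (0.58 ± 0.16, adjusted p = 0.0112) and Acad9 (0.31 ± 0.09, adjusted p = 0.0154) and lower for Fmc1 (-0.43 ± 0.16, adjusted p = 0.0493). Of the electron and nucleotide carriers it was lower for Etfdh (-0.29 ± 0.08, adjusted p = 0.0112) and Slc25a5 (-0.26 ± 0.09, adjusted p = 0.0398). Of coenzyme Q synthesis and TCA cycle genes it was higher for Coq5 (0.31 ± 0.09, adjusted p = 0.0111) and Coq6 (0.41 ± 0.11, adjusted p = 0.00971), and for Pdhb (0.37 ± 0.08, adjusted p = 0.00195) and Pcx (0.35 ± 0.11, adjusted p = 0.028). Of the genes for mitochondrial RNA and DNA upkeep it was higher for Tfb2m (0.56 ± 0.09, adjusted p = 7.77e-05) and Lrpprc (0.44 ± 0.11, adjusted p = 0.00388) and lower for Twnk (-0.35 ± 0.08, adjusted p = 0.00262). Among the subunit genes, Ndufa9 kept its call in 11 of 12 fits that left out a library, Ndufb9 in 6, Ndufa3 and Sdha in 5, and Ndufb10 and Atp5h in 3. Of the pathway genes given, Fmc1 kept its call in 3 of 12 (-0.58 to -0.29), Slc25a5 in 6 and Pcx in 7, and the others in all 12.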

How the results depend on the processing

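Of the counts and medians of subunit genes under an alternative, 378 moved by less than the limit set for them (1.5 times for a count) and 60 by more. Calls that held in every fit that left out a library numbered 38 of 46 with FK228, 5 of 8 with YF, 48 of 56 with both and 6 of 12 for the interaction. Cox6b2, whose calls support nothing, is among those that held with YF and with both. Leaving out each library in turn gave 17 to 40 higher and 3 to 9 lower subunit mRNAs in both versus FK228, 2 to 8 lower in both versus YF, 4 to 17 lower in FK228 versus control and 3 to 10 lower in FK228 versus YF. It gave 3 to 7 higher and 2 to 8 lower in YF versus control, and 7 to 23 higher and 0 to 1 lower for the interaction, whose median ran from 0.0259 to 0.18. With the RNA length trend removed, lower calls were 19 in FK228 versus control, 14 in both versus control, 13 in both versus YF, 16 in FK228 versus YF and 5 in YF versus control, 15 were higher in YF versus control, and the median of both versus YF was 0.20. Of all tested genes under that setting, 34.5%, 38.1%, 35%, 31.5% and 16.6% were lower in that order, and 18.9% were higher in YF versus control. Only under that setting did called values change sign: Atp5e was -0.22 (adjusted p = 0.0249) in FK228 versus YF, and in both versus YF Atp5k was -0.21 (adjusted p = 0.00479) and Ndufa6 was -0.13 (adjusted p = 0.0426). With library totals, 15 were lower in FK228 versus control, 14 in FK228 versus YF (0.0663 as the median), 3 in both versus FK228 and 0 for the interaction, and 43 were higher in both versus FK228 and 9 in YF versus control. Of all tested genes, library totals gave 38.5%, 41.6%, 21.1% and 14% lower in those 4 comparisons. They gave 31.6% higher in both versus FK228 and 22.4% higher in YF versus control. Library totals moved the median of all genes in FK228 versus YF from -0.04 to -0.14. In FK228 versus YF, 2 were lower with the filter at 5 CPM, and 3 with DESeq2, RLE size factors or the compared groups alone. In both versus YF, 4 were lower with the filter at 5 CPM, DESeq2 or RLE size factors. In YF versus control, 7 were lower with DESeq2 and 5 with the compared groups alone, which gave 4 lower in FK228 versus control. The cause was not tested in any of these cases.

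Replicate numbers did not pair the libraries: 2 of 18 same-number correlations were over 0.1 (range -0.407 to 0.124). With the replicate block, 39 subunit mRNAs were higher and 7 lower in FK228 versus control, and 0 were lower for the interaction. The number of libraries, 3 in each group, limits the precision, and the counts of low isoforms rest on few reads.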
